A study of Mus musculus with 10 samples.

Results

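Respiratory complex I is the proton pump of the inner mitochondrial membrane that takes electrons from NADH and passes them to ubiquinone. The genes described here are the 48 protein-coding mouse genes whose symbol begins with Nduf, among 55359 genes in the deposited table. The rule used the symbol, though it was set with earlier results of these data known. Of the genes, 40 carry subunit names while 8 carry assembly factor names (Ndufaf). Complex I has a matrix arm, made of an N module that oxidises NADH and a Q module that reduces ubiquinone, and a membrane arm with proximal and distal parts that pumps protons. Core subunits carry out electron transfer and pumping, accessory subunits surround them, and assembly factors help build the complex without staying in it. A small set of membrane core subunits is encoded by mitochondrial DNA and the rest by nuclear genes.

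RNA was sequenced from lineage-negative (Lin-) bone marrow cells, which remain after cells with markers of mature blood lineages are depleted with a kit. The 5 WT libraries came from Dhx9f/f mice, with floxed alleles of the RNA helicase gene Dhx9 and no Cre by their label. The 5 cKO libraries came from Dhx9f/f;MX1 mice, in which the interferon-responsive Mx1 promoter drives Cre and poly(I:C), a double-stranded RNA mimic, induces it. Both groups therefore carry the floxed alleles, Mx1 is not restricted to blood cells, and the age and strain of these mice, and whether the WT mice received poly(I:C), are not given in the sources used here. Libraries are named WT 1 to WT 5 and cKO 1 to cKO 5 by their labelled replicate numbers. Values are FPKM, the fragment number of a gene divided by its length and by the size of the library.

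Several features of the whole data set bear on every comparison. Depth read from the spacing of low FPKM values was 15028342 to 18717107 fragments in WT libraries and 13789920 to 17174709 in cKO libraries. Dhx9 was at 65.43 to 72.42 FPKM in WT and at 130.82 to 156.49 FPKM in the libraries labelled cKO, so the targeted gene goes against the labels and each direction below rests on those labels. Xist, the RNA of the inactive X chromosome in female cells, was at 0.04 and 0.07 FPKM in WT 2 and WT 1. It was at 99.19 to 127.76 FPKM in the other WT libraries and at most 0.09 FPKM in those labelled cKO. By this RNA, WT 1, WT 2 and all libraries labelled cKO read as male, and the other WT libraries as female. Sex and label are thus partly confounded in every comparison below, while the paper states that mouse sex was randomized. Markers of blood lineages moved too. All 12 erythroid markers passed the test as higher, with a summed level of 615 to 1679 FPKM in WT and 2303 to 3595 FPKM in cKO. Lower were 9 of 10 monocyte and dendritic cell markers (752 to 1325 against 5.17 to 212 FPKM), 5 of 10 neutrophil markers (2737 to 3713 against 148 to 2598 FPKM) and 8 of 8 megakaryocyte markers (277 to 1262 against 79.9 to 183 FPKM). Also lower were all 8 mast cell, basophil and eosinophil markers (869 to 1952 against 137 to 746 FPKM), 4 of 8 T and NK markers (79.3 to 107 against 7.23 to 30.9 FPKM) and 3 of the 6 B-lymphoid markers tested (11.4 to 16.2 against 0.87 to 7.42 FPKM for the 7 matched). The 8 stem and progenitor markers, which include Kit and Cd34, were all detected and all lower, at 89.1 to 124 FPKM in WT and 21.4 to 44.9 FPKM in cKO. The neutrophil list did not move as a whole, since the means of Ngp, Ltf, Camp, S100a8 and S100a9 were higher in cKO and did not pass, and its sum was carried mostly by Mpo, Elane, Ctsg and Prtn3. No list had a matched marker at 0 in every library. In bulk RNA, fewer cells of a type and less RNA per cell cannot be told apart, and the part of cell makeup in the values below was not tested.

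The question was whether the complex I genes differed between the libraries labelled cKO and WT, and whether subunits and assembly factors did so alike. Most of these genes were modestly higher in the libraries labelled cKO. Of 46 members with a mean of at least 0.1 FPKM, 43 had a positive difference, 24 rose, 1 fell and 21 did not pass the test. A gene passed at an adjusted p under 0.05 from limma on log2(FPKM + 0.1), with Benjamini-Hochberg adjustment over 18742 genes, and this scale holds for every log2 difference given. Across all genes tested, 16.7% passed as higher and 28.3% as lower. These shares include many genes of lower level than the members. With a mean of at least 1 FPKM required, 27 members were higher, against 2767 of 12353 genes higher and 3884 lower. The median difference of all genes was then -0.05. The median difference was 0.29 on the log2 scale over the 46 members (1.22-fold) and -0.11 over all genes, of which 43.7% were above 0. With a fold change of at least 2 also required, 1 member was higher (Ndufa12) and 1 lower (Ndufb2), against 4.6% and 16.8% of all genes.

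All 5 cKO libraries lay above all 5 WT libraries in 16 members, and all lay below in 1. Over all genes these shares were 10.6% and 21.6%. Without cKO 1, a set chosen after seeing the data, 25 members lay wholly above, against 15.7% of all genes. The members varied less within groups than most genes did. The median within-group SD on the log2 scale was 0.114 in WT and 0.172 in cKO for the members, against 0.238 and 0.351 for all genes. WT 1 was the lowest WT library in 27 of 46 members, against 23.9% of all genes, and cKO 1 the lowest cKO library in 27 of 46, against 33.7% of all genes.

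**Figure D1:**
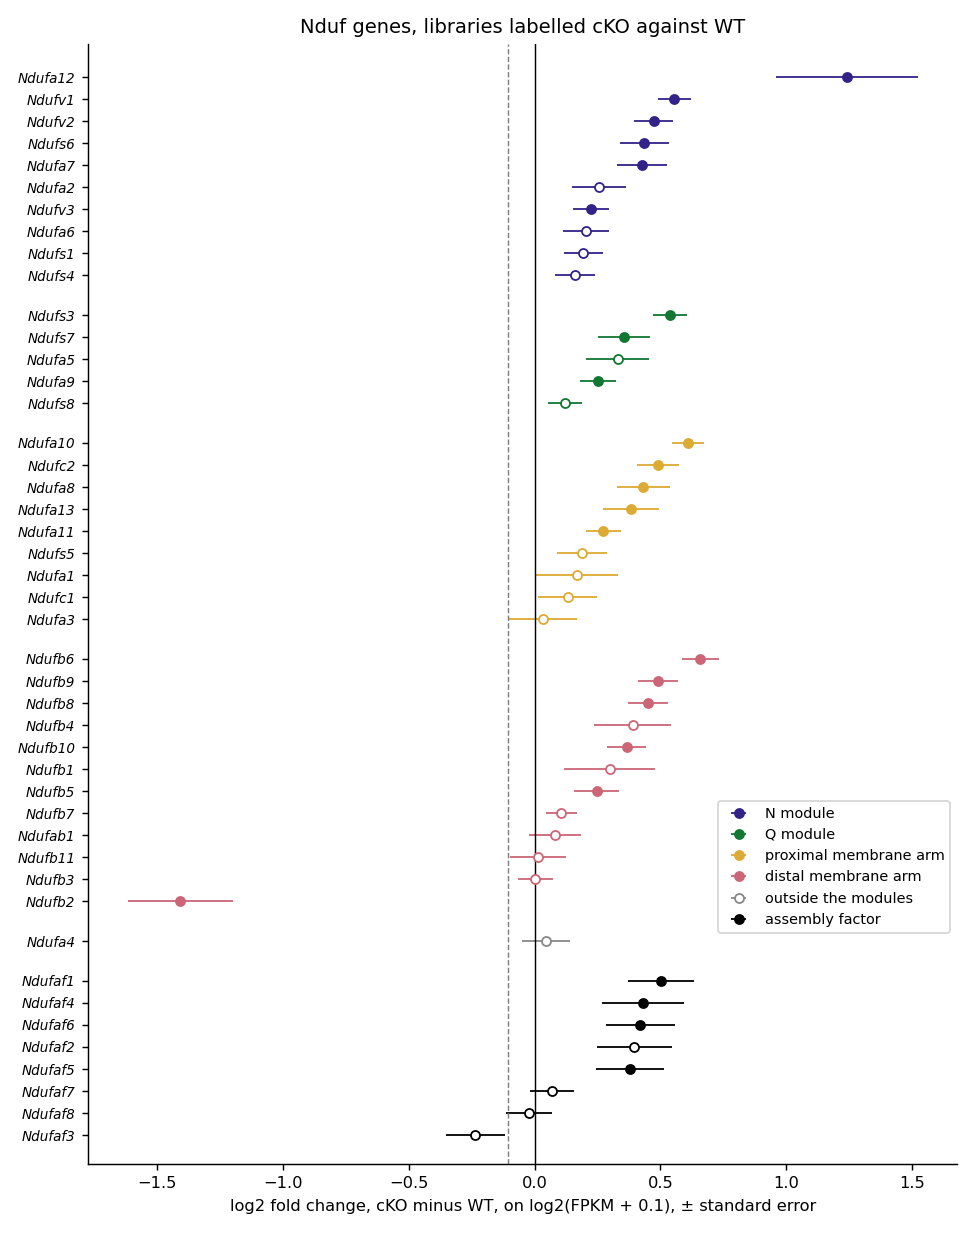
Fitted log2 difference (cKO minus WT, horizontal axis) ± standard error for 45 of the 46 Nduf genes tested, in order within each structural group. Filled circles passed the test and open circles did not, and the dashed line marks the median of all genes tested at -0.11. All but Ndufb2, Ndufaf3 and Ndufaf8 lie to the right of 0, and Ndufa12 and Ndufb2 lie farthest out.

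Among the 38 subunit genes tested, 20 rose and 1 fell, with a median difference of 0.26. Of the 37 that belong to a module, 7 are the nuclear core subunits, and 5 of these rose, with a median difference of 0.36. Of the 30 accessory subunits 15 rose and 1 fell, with a median of 0.26. By module, 6 of 10 N module genes rose (median 0.34), as did 4 of 6 of the Q module (median 0.29), 5 of 9 of the proximal membrane arm (median 0.27) and 5 of 12 of the distal membrane arm (median 0.27, with 1 that fell). Differences between modules were not tested.

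In the N module, Ndufv1, which binds the flavin that accepts electrons from NADH, was at 52.19, 51.15, 55.33, 54.03 and 49.73 FPKM in WT 1 to WT 5 and at 80.87, 78.16, 66.99, 80.37 and 80.25 FPKM in cKO 1 to cKO 5. The groups did not overlap, and cKO 3 stood below the other cKO libraries. Its log2 difference was 0.56 (standard error 0.0642, adjusted p = 0.000119, limma). Ndufv2, its iron-sulphur partner, was at 47.7, 50.73, 58.02, 55.81 and 55.12 FPKM in WT and at 64.48, 75.27, 72.23, 81.92 and 77.56 FPKM in cKO. Every cKO library again exceeded every WT library, with a log2 difference of 0.47 (standard error 0.0776, adjusted p = 0.000683, limma). Ndufs1, which carries further iron-sulphur clusters of the same module, was at 20.39, 20.68, 24.21, 21.25 and 19.9 FPKM in WT and at 27.67, 24.14, 21.95, 23.92 and 24.18 FPKM in cKO. Only cKO 1 exceeded WT 3, and the difference of 0.19 did not pass (adjusted p = 0.0615, limma).

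In the Q module, Ndufs3, a core subunit without a redox centre, was at 34.15, 36.44, 40.24, 37.74 and 34.01 FPKM in WT and at 47.84, 53.36, 52.61, 57.2 and 54.22 FPKM in cKO. The groups did not overlap (log2 difference 0.54, standard error 0.0672, adjusted p = 0.000167, limma). Of the Ndufs3 canonical transcript 52.2% has a copy of at least 98% identity elsewhere in the genome, so its fragments could be shared. Ndufs7, which carries the last iron-sulphur cluster before ubiquinone, was at 25.12, 32.33, 33.58, 30.92 and 29.68 FPKM in WT and at 31.38, 37.14, 43.3, 40.43 and 42.23 FPKM in cKO. It rose by a log2 difference of 0.36 (adjusted p = 0.0167, limma), although cKO 1 lay within the WT range. Of the annotated exon bases of Ndufs7 49.4% overlap Gamt on the opposite strand, and use of strand in the counting is not given. Ndufs8, which carries iron-sulphur clusters between Ndufs1 and Ndufs7, was at 50.26, 54.23, 52.41, 53.49 and 50.93 FPKM in WT and at 49.48, 58.31, 59.22, 55.46 and 62.43 FPKM in cKO. With cKO 1 below every WT library and the other cKO libraries above them, its difference of 0.12 did not pass (adjusted p = 0.16, limma).

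The accessory subunit with the largest positive difference was Ndufa12 (ENSMUSG00000020022, chromosome 10 of GRCm39, 94034582 to 94057450, plus strand), an N module subunit and paralogue of the assembly factor Ndufaf2. It was at 9.03, 12.49, 12.49, 17.71 and 15.89 FPKM in WT and at 34.63, 29.73, 15.41, 40.08 and 47.0 FPKM in cKO. The groups overlapped because cKO 3 lay within the WT range, while the other cKO libraries were all above it. The log2 difference was 1.24 (2.36-fold, standard error 0.282, adjusted p = 0.0044, limma), the widest standard error among the 46 members. A stretch of 39.2% of its canonical transcript is repeated at 1 other place at 98% identity or more, and a processed copy, Ndufa12-ps, is itself listed at 35.39, 51.75, 42.96, 47.86 and 60.37 FPKM in WT and 33.25, 65.55, 78.89, 74.14 and 49.69 FPKM in cKO. That copy was highest in cKO 3, where Ndufa12 was lowest of the cKO libraries, and did not pass (log2 difference 0.30, adjusted p = 0.326, limma). How the counting divided fragments between them is not given in the sources used here.

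Next came Ndufb6 of the distal membrane arm (ENSMUSG00000071014, chromosome 4, 40270581 to 40279468, minus strand), at 65.22, 69.45, 77.93, 72.59 and 71.53 FPKM in WT and 99.67, 121.2, 105.23, 117.99 and 120.1 FPKM in cKO. Every cKO library was above every WT library by more than the spread within either group, with means of 71.3 ± 4.64 and 113 ± 9.75 FPKM (SD, n = 5 each). Its log2 difference was 0.66 (1.58-fold, standard error 0.0727, adjusted p = 0.000105, limma). Ndufa10, a kinase-fold subunit of the proximal membrane arm, was at 41.21, 42.51, 46.68, 43.02 and 42.85 FPKM in WT and at 59.72, 70.38, 62.83, 68.82 and 68.83 FPKM in cKO. It too was without overlap, and its log2 difference of 0.61 (standard error 0.0619, adjusted p = 7.42e-05, limma) had the smallest adjusted p of the 46 members. Ndufc2, in the same part of the membrane arm, was at 59.95, 64.54, 71.12, 74.85 and 73.72 FPKM in WT and at 82.7, 103.38, 97.18, 104.19 and 96.56 FPKM in cKO. Ndufb9, a distal arm subunit of the LYR motif family, was at 73.59, 78.96, 82.88, 82.22 and 90.48 FPKM in WT and at 102.6, 116.96, 104.13, 130.64 and 119.97 FPKM in cKO. Neither overlapped, and each rose by 0.49 on the log2 scale (adjusted p = 0.000829 and 0.000689, limma). For Ndufb9, 28.7% of the annotated exon bases overlap Mtss1 on the opposite strand.

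**Figure D2:**
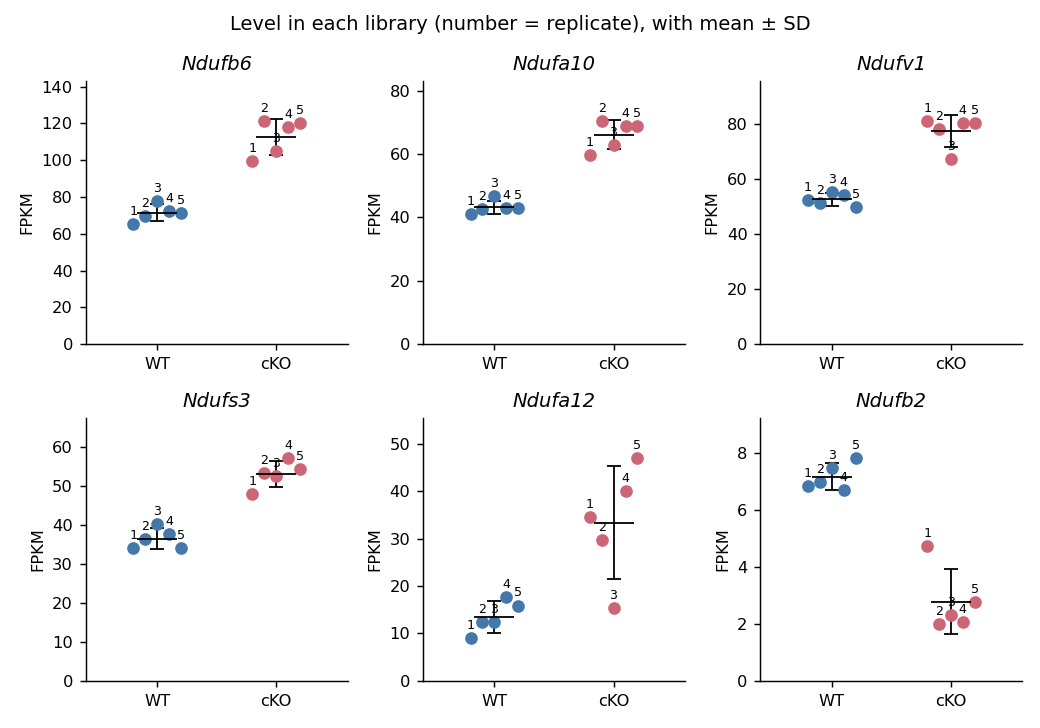
FPKM (vertical axes, from 0) of 6 subunit genes in each library, with replicate numbers beside the points and the mean ± SD of 5 libraries in black. Ndufb6, Ndufa10, Ndufv1 and Ndufs3 show cKO libraries wholly above WT, Ndufa12 has cKO 3 at 15.41 FPKM inside the WT range, and Ndufb2 has cKO 1 at 4.74 FPKM, between WT and the other cKO libraries.

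The remaining accessory subunits that rose had smaller differences, from 0.45 for Ndufb8 down to 0.22 for Ndufv3. They were Ndufs6, a zinc-binding N module subunit (0.43), Ndufa8 (0.43), Ndufa7 (0.43), Ndufa13, also known as the cell-death regulator GRIM-19 (0.38), Ndufb10 (0.37), Ndufa11 (0.27), Ndufa9 (0.25) and Ndufb5 (0.25). Groups did not overlap in these 10 genes except Ndufa8 and Ndufb5, in each of which 4 of 5 cKO libraries exceeded every WT library. For Ndufa13, 43.3% of the annotated exon bases overlap Tssk6 on the opposite strand, and use of strand in the counting is not given in the sources used here.

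Ndufb2 (ENSMUSG00000002416, chromosome 6, 39569490 to 39595671, plus strand), a small membrane-spanning subunit of the distal arm, was the member that fell. It was at 6.82, 6.96, 7.48, 6.71 and 7.82 FPKM in WT and at 4.74, 1.99, 2.31, 2.06 and 2.78 FPKM in cKO. All cKO libraries were below all WT libraries, and cKO 1 lay between WT and the other 4. Means were 7.16 ± 0.473 and 2.78 ± 1.14 FPKM (SD, n = 5 each), and the log2 difference was -1.41 (standard error 0.209, adjusted p = 0.00039, limma). Of its annotated exon bases 7.59% overlap Braf on the opposite strand, and Braf did not pass (log2 difference 0.07, adjusted p = 0.682, limma). Of its canonical transcript 10.1% has copies of at least 98% identity.

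The subunits with differences nearest 0 included the most highly expressed members. Ndufb3 of the distal arm was at 89.69, 78.96, 93.0, 92.67 and 97.77 FPKM in WT and 96.31, 88.74, 80.93, 93.4 and 93.44 FPKM in cKO. Ndufa4, now regarded as a subunit of cytochrome c oxidase, was at 88.2, 86.5, 88.57, 95.75 and 102.11 FPKM in WT and 96.48, 90.48, 76.56, 108.05 and 106.48 FPKM in cKO. In both genes the groups overlapped, with log2 differences of 0.0033 and 0.04, and neither passed (adjusted p = 0.975 and 0.74, limma). Ndufb11, an X-linked distal arm subunit, was at 76.49, 73.25, 68.6, 77.81 and 89.4 FPKM in WT and 72.18, 68.68, 68.96, 99.65 and 82.46 FPKM in cKO. Ndufa3, of the proximal arm, was at 43.35, 45.55, 45.44, 48.43 and 52.56 FPKM in WT and 43.48, 41.38, 41.88, 70.12 and 48.19 FPKM in cKO. In each of them only cKO 4 exceeded the WT range, and the differences of 0.01 and 0.03 did not pass. A large part of their exon bases overlaps a gene on the opposite strand, 67.8% with Rbm10 for Ndufb11 and 46.0% with Tfpt for Ndufa3.

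The other 13 subunits tested that did not pass had positive differences of 0.08 to 0.39 on the log2 scale. They include Ndufs4, an N module subunit whose loss models Leigh syndrome in mice (0.16, adjusted p = 0.127), Ndufab1, the mitochondrial acyl carrier protein (0.08, adjusted p = 0.563), and X-linked Ndufa1 (0.17, adjusted p = 0.427). Ndufa5 (0.33, adjusted p = 0.053), Ndufb4 (0.39, adjusted p = 0.0605) and Ndufs1, described above, lay nearest the threshold, all by limma. Ndufs5 (0.19), Ndufab1 and Ndufb4 have close copies, which cover 91.0%, 36.7% and 49.8% of the canonical transcript at 98% identity or more. Below the filter, Ndufa4l2 was at 0, 0, 0, 0.05 and 0.12 FPKM in WT and 0.33, 0.16, 0.11, 0.06 and 0 FPKM in cKO, and Ndufb11b was listed at 0 in WT and at up to 0.13 FPKM in cKO. Ndufa4l2 is a paralogue of Ndufa4 induced by hypoxia. A gene of 1000 bases with 3 fragments would lie at 0.160 to 0.218 FPKM, and of these values only that of Ndufa4l2 in cKO 1 lay above that range.

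By mean WT level, per kilobase of gene length, the subunits ran from 3.66 FPKM for Ndufb4 to 92.2 FPKM for Ndufa4, leaving out both genes below the filter. Ndufa4 was followed by Ndufb3 (90.4 FPKM), Ndufb10 (85.2 FPKM), Ndufa2 (84.1 FPKM) and Ndufb9 (81.6 FPKM), and the WT ranges of neighbours in this order overlap. The lowest tested subunits were Ndufb4, Ndufb2 (7.16 FPKM) and Ndufab1 (11.1 FPKM). The assembly factors lay between 4.22 FPKM (Ndufaf2) and 23.1 FPKM (Ndufaf1), in the lower part of that range. The gene lengths behind the FPKM are not given in the sources used here, which limits any order of levels. Ndufb4, Ndufb2 and Ndufab1 also have the close copies described above, so their fragments could be shared and their low levels are uncertain.

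Of the 8 assembly factors 4 rose, none fell by limma (0 lower at an unadjusted p under 0.05) and 4 did not pass, with a median difference of 0.39 on the log2 scale. Over all genes 16.7% passed as higher and 28.3% as lower. All 8 overlapped between groups, where 10.6% of all genes lay wholly above WT, and 16 of 38 subunits did not overlap as higher. The difference between subunits and assembly factors was not tested. Of the subunits 20 of 38 rose (52.6%), a share close to that of the assembly factors. The count of 4 was not stable, since it was 1 without WT 2, cKO 2, cKO 3 or cKO 4, was 2 without WT 1, WT 3, WT 4 or cKO 5, and was 5 without cKO 1. Of all genes tested, 2651 of 18806 were higher without cKO 2 and 3591 of 18702 without cKO 1, the lowest and highest of these counts. Without cKO 1, 4 of 8 were also free of overlap, as were 21 of 38 subunits, against 15.7% of all genes wholly above WT.

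Ndufaf1, which works with Acad9 and Ecsit on the membrane arm, was at 17.84, 23.3, 27.49, 23.04 and 24.05 FPKM in WT and at 24.79, 34.3, 36.9, 32.26 and 35.82 FPKM in cKO. Its cKO libraries other than cKO 1 exceeded every WT library (log2 difference 0.50, standard error 0.131, adjusted p = 0.00946, limma), and it passed in all 20 other settings. Ndufaf4, which acts with Ndufaf3 on the Q module, was at 12.69, 17.08, 17.6, 14.96 and 13.43 FPKM in WT and at 13.5, 21.71, 25.53, 21.08 and 21.76 FPKM in cKO. Ndufaf3 itself was at 7.87, 7.74, 6.74, 6.18 and 7.62 FPKM in WT and at 4.78, 6.09, 6.52, 6.31 and 7.06 FPKM in cKO. The partners thus had differences of opposite sign, 0.43 (standard error 0.161, adjusted p = 0.0496) for Ndufaf4 and -0.23 (standard error 0.118, adjusted p = 0.129) for Ndufaf3, of which the latter did not pass (limma). Ndufaf4 passed in 7 of 20 other settings.

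Ndufaf5, which hydroxylates Ndufs7, was at 4.66, 5.33, 5.75, 5.65 and 6.47 FPKM in WT and at 5.37, 7.48, 7.73, 8.72 and 7.27 FPKM in cKO. Ndufaf8, which stabilises Ndufaf5, was at 13.6, 13.23, 15.59, 15.51 and 12.44 FPKM in WT and at 13.26, 14.23, 15.91, 12.37 and 13.48 FPKM in cKO. Ndufaf5 rose (0.38, standard error 0.135, adjusted p = 0.0411, limma) with cKO 1 inside the WT range, and the groups overlapped for Ndufaf8 (-0.02, adjusted p = 0.862). For Ndufaf8, 37.6% of the annotated exon bases overlap Tepsin on the opposite strand. Ndufaf6, needed early for the proximal membrane arm, was at 6.37, 5.57, 5.87, 6.23 and 6.3 FPKM in WT and at 5.62, 9.47, 8.98, 9.16 and 8.14 FPKM in cKO. Again 4 cKO libraries exceeded all WT libraries and cKO 1 did not (0.42, standard error 0.137, adjusted p = 0.0276, limma). Ndufaf5 passed in 9 and Ndufaf6 in 13 of 20 other settings.

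Ndufaf2, the paralogue of Ndufa12 that occupies its place during assembly, was at 4.13, 4.72, 4.06, 3.05 and 5.13 FPKM in WT and at 4.56, 5.47, 5.13, 6.14 and 6.41 FPKM in cKO. The difference of 0.40 (standard error 0.15) narrowly missed the threshold (adjusted p = 0.0517, limma), with cKO 1 and cKO 3 within the WT range. Of the annotated exon bases of Ndufaf2 47.2% overlap the non-coding gene B230220B15Rik on the opposite strand. Ndufaf7, a protein arginine methyltransferase, was at 12.87, 11.24, 12.85, 12.1 and 10.86 FPKM in WT and at 10.79, 13.22, 13.54, 11.72 and 13.72 FPKM in cKO. Its groups overlapped (0.07, adjusted p = 0.561, limma).

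**Figure D3:**
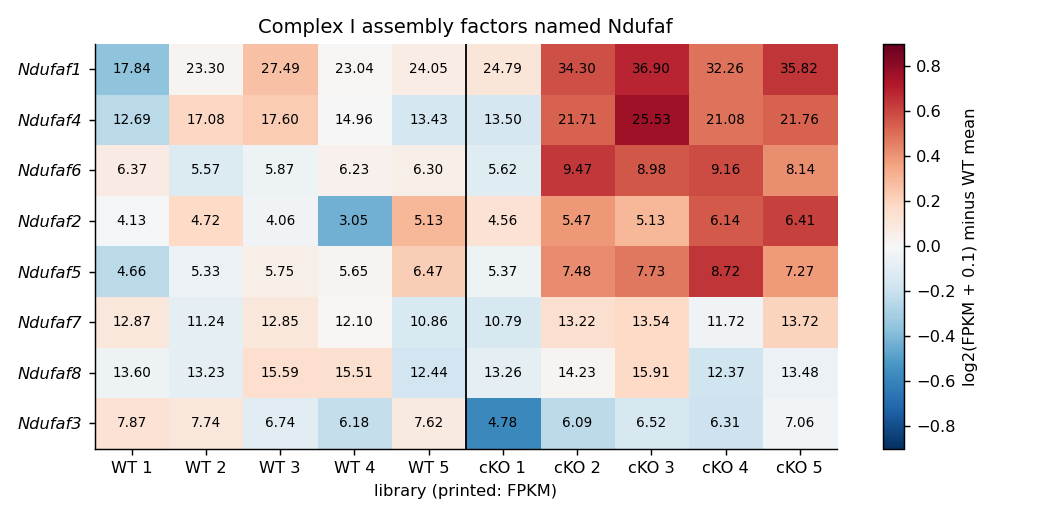
FPKM of the 8 Ndufaf genes (rows) in each library (columns), printed in each cell, with colour for the log2(FPKM + 0.1) value relative to the WT mean of that gene. Ndufaf1, Ndufaf4, Ndufaf6 and Ndufaf5 are above the WT range in cKO 2 to cKO 5, and cKO 1 resembles WT in these rows, for example 5.62 FPKM for Ndufaf6.

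The mean log2 level over the assembly factors, relative to WT, was -0.11 in cKO 1 and 0.30 to 0.37 in the other cKO libraries, against -0.07 to 0.08 in WT. Over the 38 subunits it was 0.16 in cKO 1, 0.16 to 0.43 in the others and -0.13 to 0.06 in WT. All cKO libraries were therefore above WT for the subunits and 4 of 5 for the assembly factors. Neutrophil markers also set cKO 1 apart, with a sum of 2598 FPKM there, 148 to 1123 FPKM in the other cKO libraries and 2737 to 3713 FPKM in WT. They were not alone in this. The mast cell, basophil and eosinophil sum was 746 FPKM in cKO 1 and 137 to 522 FPKM in the others. The megakaryocyte sum was 183 against 79.9 to 156 FPKM. The erythroid sum was also highest in cKO 1, at 3595 FPKM, and the remaining lists were highest in cKO 3 or cKO 5. The part of these markers in the result was not tested. Core subunits were at 0.25 in cKO 1 and 0.31 to 0.42 in the others.

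**Figure D4:**
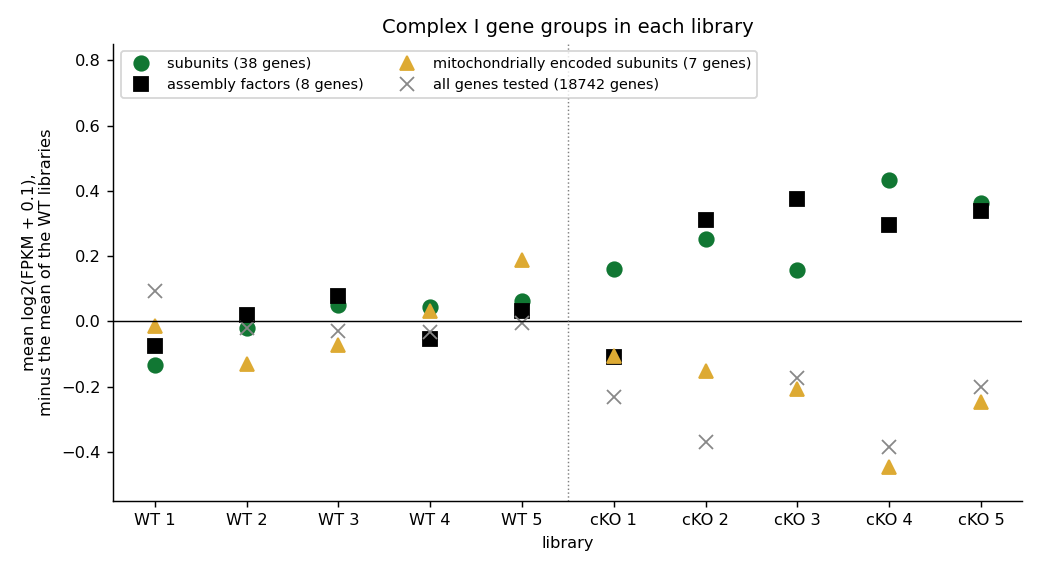
Mean log2(FPKM + 0.1) of each gene group in each library, minus the mean of the WT libraries (vertical axis), for nuclear-encoded subunits, assembly factors, mitochondrially encoded subunits and all genes tested. Subunits are higher in every cKO library, at 0.16 to 0.43, and assembly factors in all but cKO 1, at -0.11. The mitochondrially encoded subunits and all genes are below 0 in every cKO library. For the mitochondrially encoded subunits cKO 1, at -0.107, lies within the WT range of -0.131 to 0.188.

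Other genes of the pathway were read from lists drawn from general knowledge. Of 11 tested assembly factors without the Nduf name, 4 rose and 2 fell, with a median of 0.21. Over all genes 16.7% passed as higher and 28.3% as lower. Those that rose were Tmem70 (0.43), a membrane-arm factor also needed for ATP synthase, Nubpl (0.37), an iron-sulphur cluster carrier, the oxidoreductase-like Foxred1 (0.37), and Tmem186 (0.21). Foxred1 was at 10.98 to 12.87 FPKM in WT and 12.69 to 15.93 FPKM in cKO. Dmac2, a distal membrane arm factor, fell from 8.29 to 11.99 FPKM in WT to 4.77 to 7.25 FPKM in cKO (-0.83, standard error 0.141, adjusted p = 0.000802, limma). Tmem126b, a partner of Ndufaf1, fell from 4.38 to 4.72 FPKM to 2.37 to 3.72 FPKM (-0.51, standard error 0.125, adjusted p = 0.00639, limma). Neither of these overlapped between groups.

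Of the 7 subunits encoded by mitochondrial DNA none rose and 3 fell by limma (0 higher at an unadjusted p under 0.05). Shares over all genes were 16.7% higher and 28.3% lower. The median difference of the 7 was -0.42. mt-Nd2 was at 1282.46, 1410.16, 1442.09, 1353.6 and 1469.74 FPKM in WT and at 1195.42, 956.92, 1108.27, 936.09 and 902.66 FPKM in cKO, without overlap (-0.46, standard error 0.0922, adjusted p = 0.00229, limma). mt-Nd6 fell by 0.48 on the log2 scale (adjusted p = 0.0354) and mt-Nd3 fell by 0.73 (adjusted p = 0.00458, limma). mt-Nd1 was at 3099.54 to 3518.63 FPKM in WT and 3062.7 to 3994.72 FPKM in cKO and did not pass (0.08, adjusted p = 0.52). Listed levels were only 1.22 to 5.16 FPKM for mt-Nd3 and mt-Nd4l (0.55, adjusted p = 0.116), far below the other genes of that genome, so their values are uncertain. The difference between nuclear and mitochondrial subunits was not itself tested.

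Among 10 tested regulators of nuclear respiratory genes, 1 rose and 1 fell, where 16.7% of all genes passed as higher and 28.3% as lower. Pprc1, a coactivator of the PGC-1 family, was at 17.06 to 23.39 FPKM in WT and 23.22 to 29.46 FPKM in cKO (0.33, adjusted p = 0.0147, limma). Yy1, a zinc-finger transcription factor, was at 35.23 to 38.25 FPKM in WT and 28.0 to 33.04 FPKM in cKO, without overlap (-0.29, adjusted p = 0.00255, limma). Of the others, Ppargc1b had a difference of 0.27 (adjusted p = 0.188) and Esrra one of -0.39 (adjusted p = 0.0818), and neither passed. Nrf1 (0.06) and Gabpa (-0.08) did not pass either. Ppargc1a was below the filter, at 0.01 to 0.05 FPKM in WT and listed at 0 in cKO.

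Sequence around the gene starts was compared because nuclear respiratory genes are known to carry sites for such factors. RefSeq promoters of build GRCm38.p6, from 250 bases before to 50 after the start, were found for 41 of 48 members (43 promoters). They were rich in CpG, with at least 10 CpG in 97.7% of them against 43.5% of all 32851 promoters and 56.7% of protein-coding ones. Exact matches to 4 motifs, none of which contains another, were counted on both strands. The NRF1 motif CGCATGCG was in 9.30% of member promoters against 1.87% of all and 2.52% of protein-coding ones. It was in Ndufa11, Ndufa8, Ndufaf4 and Ndufaf5, each of which rose, as did 24 of the 46 members tested. Ndufaf4 and Ndufaf5 passed in only 7 and 9 of 20 other settings. A link between any motif and the differences was not tested. The YY1 motif AAGATGGC was in 18.6% against 2.75% of all and 3.05% of protein-coding promoters. Of the 8 genes with it, 4 rose (Ndufa9, Ndufb8, Ndufs6 and Ndufs7) and 4 did not pass (Ndufa3, Ndufaf8, Ndufc1 and Ndufs4). In all 8 it lay on the sense strand, starting 10 to 38 bases after the start. The GABPA motif CCGGAAGT was in 2.33% against 3.89% of all and 5.15% of protein-coding promoters (Ndufs3 alone). The ERR motif AAGGTCA was in 6.98% against 4.72% and 4.08% (Ndufb2, Ndufb4 and Ndufs5). A match is a description of letters and not of binding. Stretches are shown for Ndufs3 and Ndufb8, the pair with the largest positive differences among passed members with a match, and for Ndufb2, the member that fell, with the match in capitals. Ndufs3 is chr2:90904714-90904971 on the minus strand, with the GABPA motif read on the reverse strand, Ndufb8 is chr19:44555397-44555426 on the minus strand and shows the YY1 motif downstream of the start, and Ndufb2 is chr6:39592315-39592564 on the plus strand with the ERR motif.
Ndufs3: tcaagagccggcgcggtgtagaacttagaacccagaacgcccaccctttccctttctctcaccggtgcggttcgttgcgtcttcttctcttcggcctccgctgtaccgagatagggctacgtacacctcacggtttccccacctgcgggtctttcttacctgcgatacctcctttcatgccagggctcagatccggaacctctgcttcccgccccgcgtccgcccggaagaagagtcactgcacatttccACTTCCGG
Ndufb8: agagtgaaccgcggagaaggtgAAGATGGC
Ndufb2: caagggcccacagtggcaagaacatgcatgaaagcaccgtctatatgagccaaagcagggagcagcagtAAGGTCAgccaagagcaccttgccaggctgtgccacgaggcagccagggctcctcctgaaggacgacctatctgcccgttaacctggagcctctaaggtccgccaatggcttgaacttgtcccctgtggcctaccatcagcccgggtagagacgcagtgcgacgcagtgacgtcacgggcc

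The Ndufs3 stretch has 22 CpG and 59.3% G and C, and the Ndufb2 stretch has 11 CpG and 60.0%, so the member that fell had about as much G and C but fewer CpG. The Ndufs3 match begins at the start itself, whereas that of Ndufb2 begins 181 bases before the start.

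**Figure D5:**
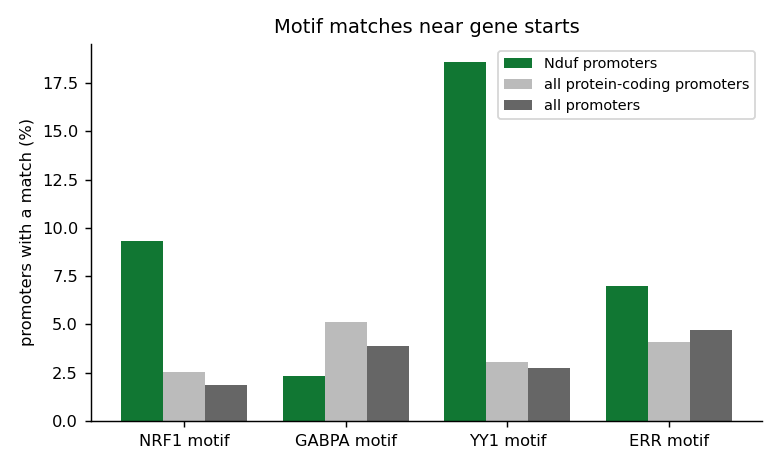
Share of promoters (vertical axis, percent) with an exact match to each motif on either strand, for 43 Nduf promoters, 21262 promoters of protein-coding genes and all 32851 promoters. The YY1 motif (18.6%) and the NRF1 motif (9.30%) stand above the share of all promoters, and the GABPA motif (2.33%) stands below it.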

How the data were processed

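The deposited table holds FPKM values to 2 decimals for 55359 genes in 5 WT and 5 cKO libraries. Per the submitters' processing notes the authors used cutadapt 1.9.1, HISAT2 2.0.1 and HTSeq 0.6.1 with GRCm39, and their paper names DESeq2 for testing. The annotation, gene lengths and strand setting are not given in the sources used here. Because FPKM are not counts, differences were fitted with limma 3.58.1 (lmFit, eBayes with trend, two-sided) in R 4.3.3 on log2(FPKM + 0.1) over the 18742 genes whose mean reached 0.1 FPKM, with Benjamini-Hochberg adjustment, which understates changes of low genes. The count test of the study was not run. Members and lists were chosen with earlier results of these data known.

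Of the identifiers 54749 were matched to GENCODE vM39 for symbols and coordinates, and the symbol Coa1 was not matched. Depth came from genes with 1 transcript of 300 to 1500 bases, where 96.0% to 96.3% of values of up to 20 fragments were within 0.2 of a whole number. Copies of at least 100 bases were searched with BLAST 2.17.0. The labels number the replicates without naming the mice. The paper takes n as individual mice unless otherwise stated, but gives no n for these libraries. The p-values therefore measure the spread between these samples, which may be technical. Values printed for every library are those of members past a fold change of 2, the 8 largest positive and 8 largest negative differences, core subunits and all Ndufaf genes, and of other lists up to 2 genes in each direction are described, with further ones chosen after their values were seen. The values of 1 member are not reported here, though it stays in the counts and medians. Alternatives were other pseudocounts (0.01 and 1), filters, scalings, no trend, a replicate block, an Xist covariate and each library left out. The steps were tested on simulated data. Figures were drawn with matplotlib 3.10.9.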

Additional observations from a re-analysis of the deposited data

Results flagged for a closer look

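Within groups of 5, 3 of 44 groups examined had a library far from the rest (Dixon's test at the 95% level), where chance gives about 2.2 (1 in 20). Ndufb2 in cKO 1 was at 4.74 FPKM, with the other cKO libraries at 1.99 to 2.78 FPKM. Ndufv1 in cKO 3 was at 66.99 FPKM against 78.16 to 80.87 FPKM. The mean log2 level of the assembly factors, relative to WT, was -0.109 in cKO 1 and 0.296 to 0.374 in the other cKO libraries.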

How the results depend on the processing

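Of the 25 members that passed, 18 passed in the same direction in all 20 other settings, and the 7 that did not included Ndufaf4, Ndufaf5, Ndufaf6, Ndufa9, Ndufb5 and Ndufv3. Leaving out each library in turn gave 18 to 31 members higher and 1 lower. Among all genes tested 2651 to 3591 were then higher and 4716 to 5753 lower. At a fold change of at least 2, 1 member was called in each direction. Free of overlap as higher were 16 to 25 members, against 10.9% to 15.7% of all genes. The highest counts came without cKO 1. Medians then ranged from 0.224 to 0.307 for subunits and from 0.334 to 0.472 for assembly factors. Among scalings, quantile normalization moved the median of all genes tested to 0.099 and the all-gene split to 4700 higher and 3931 lower, from 3138 and 5300, while 19 subunits and 5 assembly factors rose. Median-ratio scaling gave 29 and 5, with 4038 of all 18742 genes higher. An equal sum per library gave 18 and 2, with 2816 of all genes higher. A covariate for Xist above 1 FPKM also gave 18 and 2, with 2035 of all genes higher. No library labelled cKO had Xist above 1 FPKM, so with that covariate the difference rests on WT 1 and WT 2 against the cKO libraries. With no filter or no trend 2 assembly factors rose, where 3024 of 28093 and 2918 of 18742 genes were higher. Positive differences were found in 40 to 44 of 46 members over all settings in which 46 were tested. Ndufaf8, at -0.022, changed sign to 0.0813 with median-ratio scaling, 0.0664 with quantile normalization, 0.0407 with the Xist covariate, and 0.0157, 0.0139 and 0.0168 without WT 3, WT 4 or cKO 4 (-0.0733 to 0.0168 over all libraries left out), and the cause was not tested. With the replicate number as a block, 22 subunits and 3 assembly factors rose, with 3111 of all genes higher. Whether the numbers pair the samples is not known. Correlations of same-numbered libraries were low, at -0.0103 to 0.117. WT 1, WT 2 and WT 5 correlated best with the cKO library of their own number, and WT 3 and WT 4 did not.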
